A study of Rattus norvegicus and Bos taurus with 6 samples.

Results

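The adipogenic transcription factors described here are 10 genes, Pparg, Cebpa, Cebpb, Ebf1, Ebf2, Ebf3, Zfp423, Klf15, Rxra and Ppara, matched by symbol in any case in each library. All 10 were listed among the 38697 genes of the rat Parse libraries and the 25629 genes of the rat 10x library. In the cow, 9 were measured among 36075 listed genes. The bovine symbol ZNF423 was taken for Zfp423 as an addition to the rule, and cow PPARG was not analysed here.

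Adipogenesis is a relay of transcription factors. C/EBPβ acts early after the hormonal signal, ZFP423 and the early B-cell factors EBF1, EBF2 and EBF3 act in committed progenitors and at fat gene enhancers, and PPARγ with C/EBPα then switches on and maintains the program of the fat cell. PPARγ binds DNA as a dimer with RXRα, KLF15 acts in lipid and amino acid metabolism of mature adipocytes, and PPARα drives fatty acid oxidation and is typical of brown fat, where EBF2 also marks committed cells.

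The data were single-nucleus RNA-seq (snRNAseq) libraries of 5 rat samples and 1 cow sample, 1 library per condition. The rats were normal males of the salt-sensitive Dahl SS strain (SS/HsdMcwiCrl), untreated as far as the labels say. Their depots were thoracic aorta perivascular fat (taPVAT) and subscapular brown fat (BAT), both brown, and mesenteric perivascular fat (mesPVAT) and retroperitoneal fat (RP fat), both white. The cow sample was subcutaneous white fat (cow WAT) from the flank of lactating Holstein dairy cows. The ages of the animals, and whether a sample pooled several, are not given in the sources used here. The 4 rat depots and the cow fat were barcoded with the Parse kit, and mesPVAT was also run on the 10x platform with another nuclei protocol and in another batch. Nuclei preparation also differed among the Parse libraries. The study spun taPVAT homogenates more slowly than those of rat and cow white fat, and passed only cow homogenates through its finest filter. Its methods do not name the speed for BAT. A difference between depots can therefore not be told apart from a difference between libraries or their preparation, and no test was possible. Intervals below are 95% intervals for counting error only, and a gene counted as different when it lay at least 2-fold apart with at least 20 UMIs (unique molecules) over the groups compared.

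The libraries held 2297 to 5887 nuclei and 845316 to 16827260 UMIs. Median UMIs per nucleus were 1246 for taPVAT, 1706 for BAT and 3530 for cow WAT, against 161 in the 10x library and 346 and 213 in the Parse libraries labelled mesPVAT and RP fat. The order of these last libraries in depth is opposite to that in the study's text, so they are called by their labels. In knee plots of mesPVAT and RP fat on Parse the study saw no clear inflection. It read this as difficulty in separating true nuclei from free RNA. It also placed rat white fat below the level it held necessary for robust annotation of cells. No barcode was shared between any pair of libraries. Adipocyte-gated nuclei had a UMI of Plin1, which coats lipid droplets, or Adipoq, the adiponectin gene, and none of Pdgfra or Dcn, genes of adipose stem and progenitor cells (ASPCs). Stromal-gated nuclei were the reverse, and the cow gate rested on PLIN1 alone. The gates took 1387, 669, 284, 1538, 1842 and 214 adipocyte-gated nuclei and 110, 111, 97, 147, 54 and 614 stromal-gated nuclei in mesPVAT on 10x, mesPVAT on Parse, RP fat, taPVAT, BAT and cow WAT. The summed level of adipocyte markers outside the gate was 2.98 to 20.9 times as high in adipocyte-gated nuclei, with RP fat lowest, and the summed stromal markers 0.0328 to 0.373 times, with RP fat highest. The gates thus followed their markers in each library, least sharply in RP fat. Stromal-gated nuclei also held more markers of other cells. Summed pericyte and smooth muscle markers in adipocyte-gated nuclei stood at 0.253 times the stromal-gated level in BAT and 0.318 times in taPVAT. They stood at 0.307 times on 10x, 0.464 times in mesPVAT on Parse and 0.567 times in cow WAT, but 1.03 times in RP fat. Immune markers stood at 0.268 times in BAT and 0.708 times in taPVAT, so the stromal-gated group is not progenitors alone.

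Pparg (ENSRNOG00000008839, GRCr8 chromosome 4, bases 150095743 to 150221104) encodes PPARγ, the nuclear receptor that fat cells require. The promoter table made from RefSeq lists an upstream and a downstream start inside this span, neither of them at its first base, and the 250 bases before each, on the plus strand, are shown because gene-level counts add both. The first window spans chr4:150096808-150097057 and the second chr4:150154522-150154771, and capitals mark matches of the searched letters TTGCNNAA (bound by C/EBP factors) and CCAAT.
Pparg upstream start: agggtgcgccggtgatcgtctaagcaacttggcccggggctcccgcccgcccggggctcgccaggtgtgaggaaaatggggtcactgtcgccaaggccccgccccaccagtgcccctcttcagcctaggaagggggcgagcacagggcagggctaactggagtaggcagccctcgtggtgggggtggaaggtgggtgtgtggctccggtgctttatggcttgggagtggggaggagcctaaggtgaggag
Pparg downstream start: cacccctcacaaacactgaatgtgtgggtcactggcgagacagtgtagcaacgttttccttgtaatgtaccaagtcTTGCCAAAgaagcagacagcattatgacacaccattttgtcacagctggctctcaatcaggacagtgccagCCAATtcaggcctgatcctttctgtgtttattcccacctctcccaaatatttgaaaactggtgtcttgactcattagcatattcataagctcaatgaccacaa
The upstream window was 67.2% G and C and held no match. The downstream window was 44.8% G and C, with TTGCNNAA starting 174 bases and CCAAT 103 bases before the start. On either strand, TTGCNNAA occurs in 9.22% and CCAAT in 34.0% of 33469 rat RefSeq windows of 300 bases, and in 2 each of the 9 windows listed for 8 of the factors (Pparg and Rxra, and Pparg and Klf15). A match is a run of letters, not a measured site, and these counts do not say which start was used.

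Summed over all nuclei and scaled to the library's total (CPM), Pparg stood at 1183 CPM (1154 to 1214) in taPVAT and 1285 CPM (1258 to 1314) in BAT. It stood at 217 CPM (195 to 241) in the Parse library labelled mesPVAT, 189 CPM (161 to 221) in that labelled RP fat and 221 CPM (196 to 249) in mesPVAT on 10x. The brown and white depots did not overlap, the white libraries had overlapping intervals, and in sums over all nuclei fewer cells of a type and less RNA per cell cannot be told apart. Between the technical sublibraries of the Parse libraries Pparg differed little, with 1309 and 1262 CPM in BAT and 215 and 220.1 CPM in mesPVAT.

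Within taPVAT, Pparg stood at 1405 CPM in adipocyte-gated and 282 CPM in stromal-gated nuclei, a ratio of 4.98 (3.83 to 6.60). In BAT these were 1441 and 213 CPM, a ratio of 6.76 (4.16 to 11.8). The ratio was 2.33 (1.26 to 4.79) in mesPVAT on Parse, 5.52 (1.49 to 46.2) on 10x from 2 stromal UMIs, and 1.29 (0.621 to 2.86) in RP fat. The sublibraries of mesPVAT gave 7.34 and 1.20. The brown ratios were thus the best counted, while that of RP fat was not distinguishable from 1 at this depth. After thinning to 200 UMIs per nucleus, Pparg was found in 22.6% (20.7 to 24.6) of adipocyte-gated, 1.85% (0.0469 to 9.89) of stromal-gated and 2.74% (0.334 to 9.55) of immune-class nuclei of BAT. Without thinning these shares were 79.8%, 16.7% and 20.5%, at median depths of 2172, 990 and 903 UMIs.

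**Figure D1:**
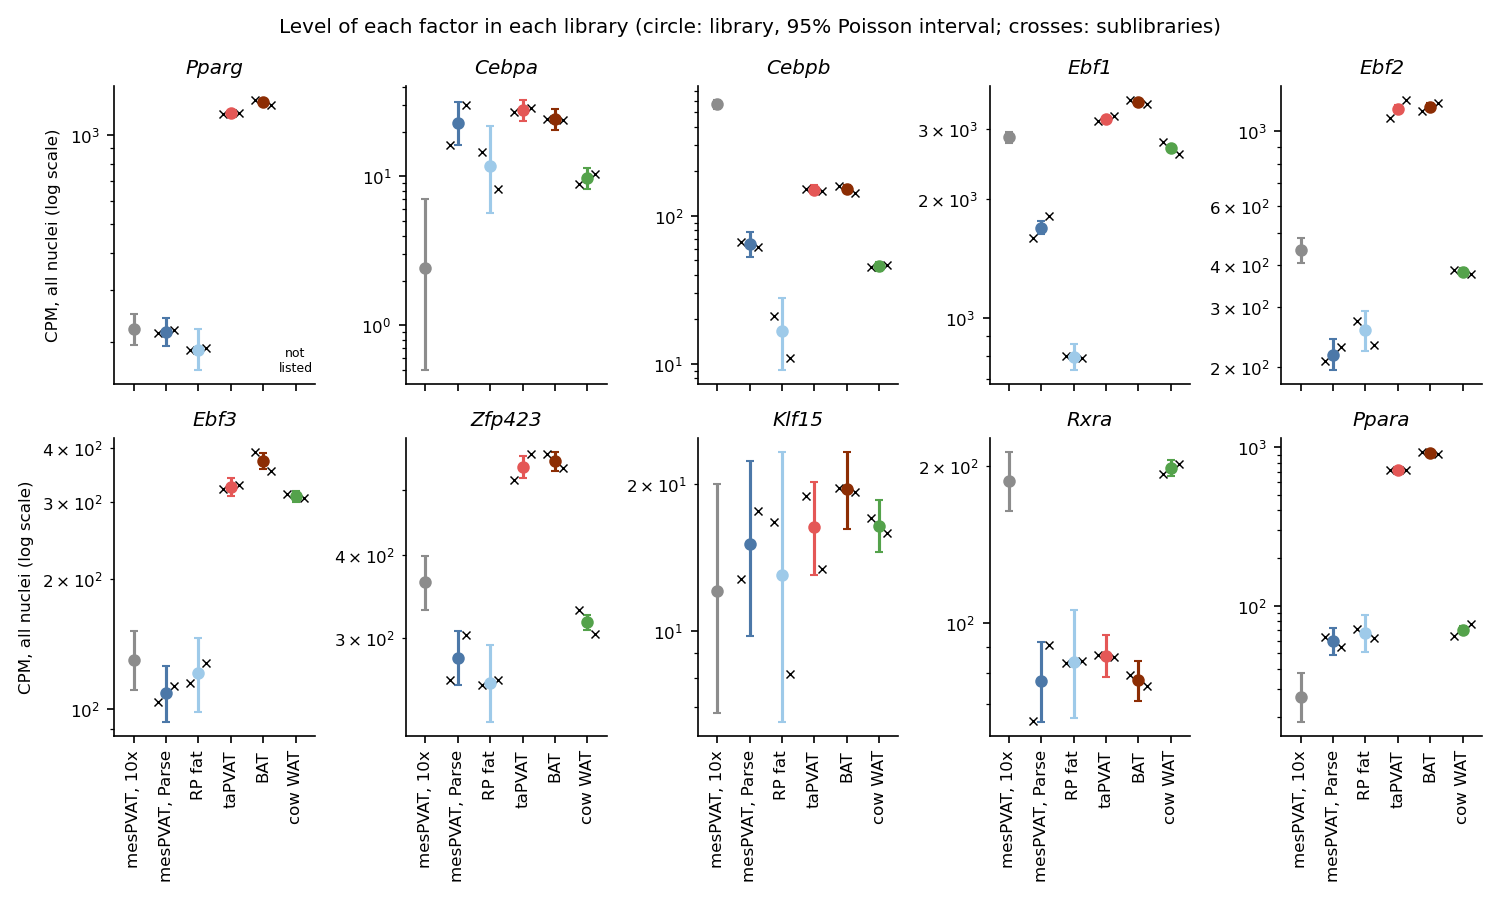
Level of each factor in CPM over all nuclei (log scale, a scale per gene) in the 6 libraries, with circles for libraries, bars for 95% Poisson intervals of counting error and crosses for the technical sublibraries. Pparg, Ebf2 and Ppara sit far higher in taPVAT and BAT than in the white rat libraries, while Rxra and Klf15 have overlapping intervals across the rat Parse libraries.

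Ppara (ENSRNOG00000021463, chromosome 7, 118712261 to 118780723), the receptor that drives fatty acid oxidation, had the widest span between depots. The taPVAT library held 719 CPM (696 to 742) and BAT 916 CPM (893 to 940.0). It stood at 59.8 CPM (48.6 to 72.8) in mesPVAT on Parse, 67.4 CPM (51.1 to 87.4) in RP fat, 26.7 CPM (18.4 to 37.4) on 10x and 70.7 CPM (66.8 to 74.9) in cow WAT. Both brown libraries were high and the others low, with a gap of 10.7-fold between the lower brown and the higher white Parse library. In adipocyte-gated nuclei the levels were 888 CPM in taPVAT and 1079 CPM in BAT against 41.4 CPM in mesPVAT and 54.8 CPM in RP fat, the last from 6 UMIs.

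The adipocyte-to-stromal ratio of Ppara was 10.4 (6.46 to 17.8) for taPVAT nuclei and 20.3 (7.91 to 74.4) for those of BAT, where 4 stromal UMIs set the width. It was 1.05 (0.358 to 4.21) in mesPVAT on Parse and 1.68 (1.38 to 2.04) in cow WAT. Cow WAT thus lay under the 2-fold line and apart from the brown rat depots. At 200 UMIs per nucleus, 17.8% (16.1 to 19.6) of adipocyte-gated and 1.57% (0.681 to 3.07) of endothelial-class BAT nuclei had a Ppara UMI, and unthinned 69.1% and 9.63%, at median depths of 2172 and 1075 UMIs.

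Ucp1, the uncoupling protein of brown adipocytes, served as a gauge of adipocyte RNA in the other classes, which should lack it. The ratio of Ppara to Ucp1 UMIs was 0.404 in the adipocyte class of taPVAT, and 0.415, 0.323 and 0.397 in its stromal, endothelial and pericyte classes, with overlapping intervals. In BAT it was 0.442 in adipocytes and 0.380, 0.355 and 0.514 in the same classes, and these intervals overlapped too. Ppara in these classes thus stood in nearly the same proportion to Ucp1 as in the adipocyte class. Free RNA, doublets and misplaced nuclei cannot be told apart by this proportion, and none of them was tested. The immune classes gave 0.667 (0.390 to 1.12) in taPVAT and 1.15 (0.512 to 2.63) in BAT, the latter above the adipocyte interval. Ucp1 was also counted in the white Parse libraries, at 63.4 CPM in mesPVAT and 89.9 CPM in RP fat, and 1 Ucp1 UMI stood beside 33 Ppara UMIs on 10x. What part free RNA has in the white levels of Ppara was not tested.

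Rxra (ENSRNOG00000009446, chromosome 3, 31387892 to 31474415), the dimer partner of both PPAR receptors, did not follow them. It stood at 77.3 CPM (64.5 to 91.9), 84.0 CPM (65.6 to 106), 86.5 CPM (78.6 to 94.9) and 77.6 CPM (70.8 to 84.7) in mesPVAT, RP fat, taPVAT and BAT on Parse, with overlapping intervals. It stood at 187 CPM (164 to 213) on 10x and 198 CPM (191 to 205) in cow WAT. Its adipocyte-to-stromal ratio was 0.912 (0.574 to 1.53) in taPVAT, 1.13 (0.482 to 3.51) in BAT, 1.27 (0.599 to 3.09) in mesPVAT on Parse and 1.71 (1.52 to 1.92) in cow WAT. The ratio of 4.24 (1.14 to 35.6) on 10x passed the fold with 2 stromal UMIs.

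Cebpa (ENSRNOG00000010918, chromosome 1, 96896584 to 96899256), the partner of Pparg in the mature fat cell, was thinly counted in rat nuclei. It stood at 27.8 CPM (23.5 to 32.8) in taPVAT, 24.1 CPM (20.4 to 28.2) in BAT, 22.9 CPM (16.2 to 31.5) in mesPVAT on Parse, 11.8 CPM (5.67 to 21.8) in RP fat, 9.69 CPM (8.26 to 11.3) in cow WAT and 2.42 CPM (0.500 to 7.08) on 10x, the last from 3 UMIs. The 3 highest libraries had overlapping intervals. In cow WAT it had the largest gated ratio of the 9 factors, at 24.2 CPM in adipocyte-gated and 3.40 CPM in stromal-gated nuclei, a ratio of 7.12 (3.97 to 13.3). Grouping nuclei by marker UMIs, the stromal, endothelial, pericyte and immune classes of the cow were each at most 0.244 times the adipocyte class. In taPVAT the direction was the other way, at 26.1 CPM in adipocyte-gated and 50.4 CPM in stromal-gated nuclei, a ratio of 0.517 (0.269 to 1.11) from 10 stromal UMIs and not distinguishable from 1. The stromal progenitor class of taPVAT held 2.70 times (1.68 to 4.22) the adipocyte level, and that of BAT 1.68 times (0.602 to 3.76) from 6 UMIs. The taPVAT sublibraries disagreed, at 2.48 and 0.295 for the gated ratio. In mesPVAT on Parse, 25 UMIs in adipocyte-gated and 0 in stromal-gated nuclei gave a ratio of at least 1.60.

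Cebpb encodes C/EBPβ, which acts early in adipogenesis and also in inflammation. Its rat identifier was ENSRNOG00000078148 in the Parse annotation (chromosome 3, 176817005 to 176818436) and ENSRNOG00000057347 in the 10x annotation. Its levels were 150.2 CPM (139.7 to 161) in taPVAT, 151 CPM (142 to 161) in BAT, 64.0 CPM (52.4 to 77.4) in mesPVAT, 16.6 CPM (9.05 to 27.8) in RP fat and 45.7 CPM (42.5 to 49.0) in cow WAT, all on Parse. The brown pair coincided, and mesPVAT, cow WAT and RP fat followed in that order without overlap. On 10x it stood at 566 CPM (525 to 610.0). The adipocyte-to-stromal ratio was 2.70 (1.57 to 5.10) in taPVAT, at least 4.41 in BAT with 0 stromal UMIs, 3.26 (1.21 to 12.3) in mesPVAT on Parse and 2.92 (2.31 to 3.69) in cow WAT. On 10x it was 0.774 (0.499 to 1.25), so the mesPVAT libraries of the 2 platforms gave opposite sides of 1 with overlapping intervals.

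Klf15 (ENSRNOG00000017808, chromosome 4, 124522652 to 124535613), a metabolic Krüppel-like factor, was low everywhere, between 12.1 CPM on 10x and 19.5 CPM (16.2 to 23.2) in BAT, with overlapping intervals among the rat libraries. Its clearest pattern was in cow WAT, at 35.1 CPM in adipocyte-gated and 8.59 CPM in stromal-gated nuclei, a ratio of 4.09 (2.72 to 6.19). In taPVAT the ratio was 3.88 (0.674 to 155) with 1 stromal UMI. In BAT, 0 stromal UMIs allowed only a ratio of at least 0.551, which gives no direction.

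**Figure D2:**
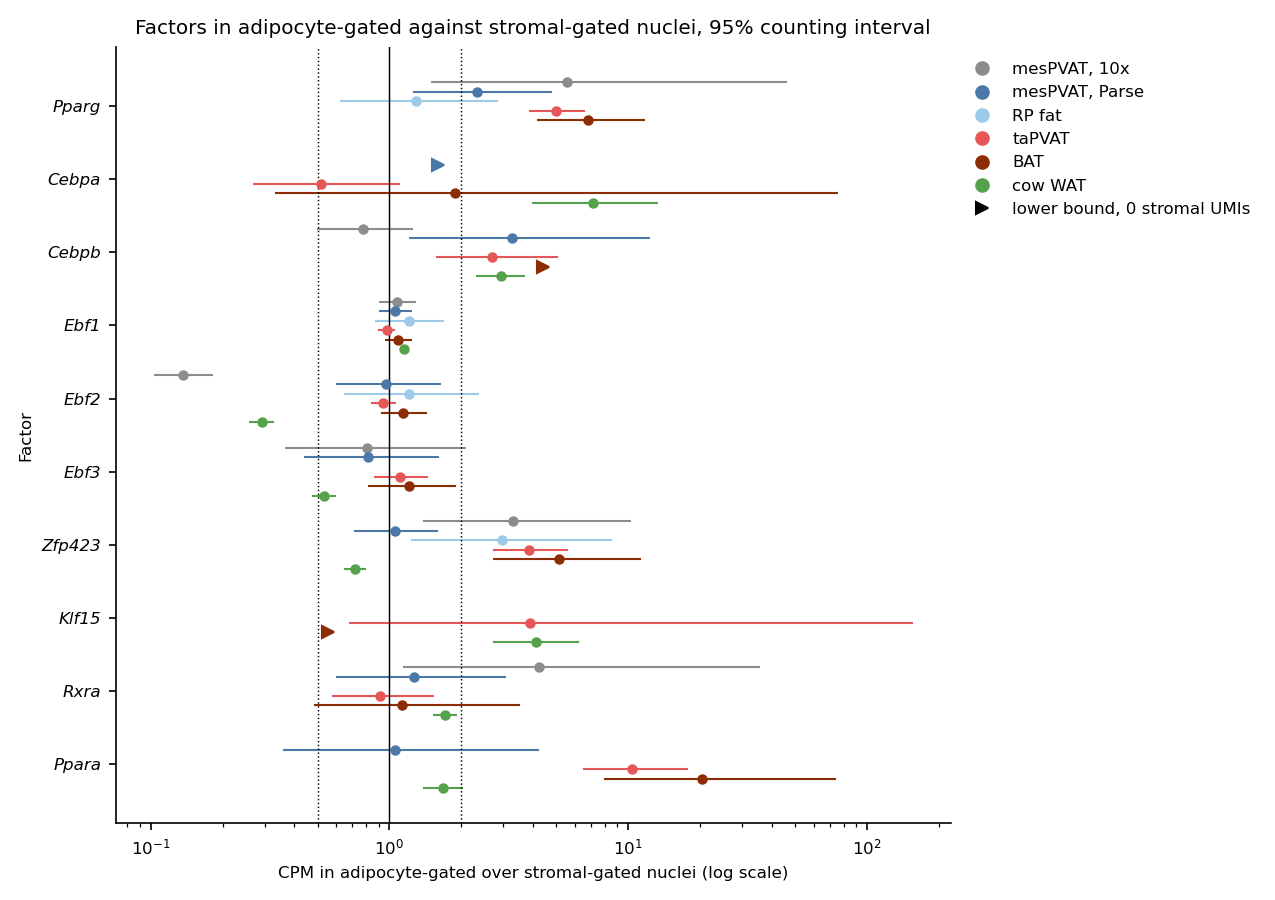
CPM in adipocyte-gated over CPM in stromal-gated nuclei (log scale) for each factor in each library, with 95% counting intervals, dotted lines at 2-fold either way and triangles for lower bounds from 0 stromal UMIs. Pparg, Ppara and Zfp423 of the brown depots lie right of 2, Ebf1 lies near 1 in each library, and Ebf2 lies left of the 2-fold line in mesPVAT on 10x and in cow WAT.

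Ebf1 (ENSRNOG00000028845, chromosome 10, 29597221 to 29990571), which opens fat cell enhancers and also serves other mesenchymal and blood lineages, gave the most UMIs of the 10 factors in each library, over a gene span of 393 kb. It stood at 3191 CPM (3142 to 3240.3) in taPVAT, 3519.8 CPM (3474 to 3566) in BAT, 1692 CPM (1630.4 to 1756) in mesPVAT on Parse, 796 CPM (737 to 859) in RP fat, 2859 CPM (2765 to 2955) on 10x and 2691 CPM (2666 to 2716) in cow WAT. Ranked by level, no pair of neighbouring libraries had overlapping intervals. It was not an adipocyte gene by the gates, with ratios of 0.972 (0.899 to 1.05) in taPVAT, 1.09 (0.958 to 1.24) in BAT, 1.05 in mesPVAT on Parse, 1.08 on 10x, 1.21 in RP fat and 1.15 (1.11 to 1.19) in cow WAT. Among the classes of BAT the pericyte and smooth muscle class was highest at 1.39 times (1.32 to 1.45) the adipocyte level. The endothelial class followed at 1.18 times (1.14 to 1.23), and the immune class was low at 0.302 times (0.241 to 0.373). The same order held in taPVAT, at 1.37, 1.11 and 0.285 times. In cow WAT the adipocyte class was highest, and the endothelial and immune classes stood at 0.598 and 0.178 times its level. The stromal progenitor class stood at 0.966 times the adipocyte class in taPVAT and 0.963 times in BAT. It was lower in white fat, at 0.570 times (0.507 to 0.639) on 10x and 0.800 times (0.707 to 0.905) in mesPVAT on Parse. In RP fat it stood at 0.569 times (0.418 to 0.776) and in cow WAT at 0.732 times (0.715 to 0.749).

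Ebf2 (ENSRNOG00000011548, chromosome 15, 45610949 to 45809828), known from brown and beige precursors, stood at 1165 CPM (1135 to 1195) in taPVAT and 1183 CPM (1156 to 1210.3) in BAT. It stood at 217 CPM (195 to 241) in mesPVAT and 256 CPM (223 to 292) in RP fat on Parse, 443 CPM (407 to 481) on 10x and 382 CPM (373 to 392) in cow WAT. The brown pair lay above the rest, and its intervals overlapped. In brown fat, adipocyte-gated and stromal-gated nuclei held it alike, with ratios of 0.942 (0.834 to 1.07) in taPVAT and 1.14 (0.926 to 1.43) in BAT, and stromal-to-adipocyte class ratios of 1.00 in both. Its endothelial level was 0.135 times that of adipocytes in taPVAT and 0.115 times in BAT, beside 0.144 and 0.128 times for Ucp1, while its pericyte levels were 0.509 and 0.605 times.

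Ebf2 was at least 2-fold higher in stromal-gated nuclei of cow WAT and of mesPVAT on 10x. In cow WAT it stood at 167 CPM in adipocyte-gated and 571 CPM in stromal-gated nuclei, a ratio of 0.293 (0.258 to 0.330). The cow pericyte and smooth muscle class was higher still at 1138 CPM (1069.6 to 1211), 5.23 times (4.73 to 5.80) the adipocyte class. In mesPVAT on 10x it stood at 321 CPM (266 to 385) in adipocyte-gated and 2344 CPM (1879.8 to 2888) in stromal-gated nuclei, a ratio of 0.137 (0.103 to 0.183). At 200 UMIs per nucleus, 37.7% (24.8 to 52.1) of stromal-gated, 4.77% (3.37 to 6.55) of adipocyte-gated and 2.13% (0.259 to 7.48) of endothelial-class nuclei of that library had an Ebf2 UMI, with 57, 633 and 43 shallower nuclei left out. Unthinned, 33 of 110, 7.43% and 2.19% had one, at median depths of 178, 213 and 287 UMIs. The Parse library labelled mesPVAT gave 190.2 CPM (155 to 231) and 197 CPM (120.1 to 304), a ratio of 0.967 (0.595 to 1.65). The stromal lean of Ebf2 in mesPVAT was thus seen on 10x and not on Parse. Stromal markers outside the gate summed to 14755 CPM in stromal-gated nuclei on 10x and to 3393 CPM on Parse, and their part in this difference was not tested.

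Ebf3 (ENSRNOG00000016102, chromosome 1, 201426446 to 201544444), the third member of the family measured, stood at 325 CPM (309.8 to 341) in taPVAT, 374 CPM (359 to 389.6) in BAT and, in cow WAT, 309.8 CPM (301 to 318), against 109 CPM (93.4 to 126) in mesPVAT on Parse, 121 CPM (98.4 to 146) in RP fat and 130.1 CPM (111 to 152) on 10x. The white rat libraries overlapped among themselves. The gated ratio was 1.11 (0.861 to 1.45) in taPVAT, 1.21 (0.814 to 1.90) in BAT and, for cow WAT, 0.531 (0.472 to 0.596), where the pericyte and smooth muscle class held 2.36 times (2.10 to 2.66) the adipocyte level. In the cow both Ebf2 and Ebf3 were therefore higher in stromal and mural nuclei than in adipocytes, with Ebf3 just short of the 2-fold line in the gates.

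Zfp423 (ENSRNOG00000014658, chromosome 19, 35282149 to 35580775) encodes a zinc finger protein known for committing progenitors to fat and for holding white adipocytes in their state. It stood at 543 CPM (522 to 563) in taPVAT, 554 CPM (535 to 572) in BAT, 280.1 CPM (255 to 307) in mesPVAT on Parse, 257 CPM (224 to 293) in RP fat, 364 CPM (331 to 399) on 10x and 317 CPM (308 to 325) in cow WAT. Both brown depots lay above both white rat Parse libraries, and each pair overlapped within itself. In 4 of the 5 rat libraries adipocyte-gated nuclei held more than 2 times the stromal level, with ratios of 3.84 (2.72 to 5.59) in taPVAT, 5.14 (2.71 to 11.3) in BAT, 3.29 (1.38 to 10.3) on 10x and 2.95 (1.23 to 8.57) in RP fat. These ratios rested on 33, 9, 5 and 6 stromal UMIs. In mesPVAT on Parse the ratio was 1.05 (0.713 to 1.59), and for ZNF423 in cow WAT 0.719 (0.646 to 0.799).

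Among the stromal, endothelial, pericyte and immune classes of brown fat, Zfp423 was highest in the endothelial one, at 0.594 times (0.509 to 0.690) the adipocyte level in taPVAT and 0.552 times (0.484 to 0.627) in BAT, above the 0.144 times (0.123 to 0.169) and 0.128 times (0.112 to 0.145) of Ucp1. In cow WAT the endothelial class lay above these and the adipocyte class, at 462 CPM (439 to 485) or 1.60 times (1.46 to 1.74) the adipocyte class. Pparg also stood above Ucp1 in brown fat. Its endothelial level was 0.340 times (0.298 to 0.387) that of adipocytes in taPVAT and 0.418 times (0.380 to 0.460) in BAT, and its pericyte level 0.443 and 0.450 times. In the immune classes Pparg and Zfp423 stood at 0.209 and 0.151 against 0.0603 times for Ucp1 in BAT. In taPVAT they stood at 0.150 and 0.182 against 0.0862 times. These immune intervals overlapped those of Ucp1 except for Pparg in BAT. The part of adipocyte RNA in the levels of these classes was not tested. At 200 UMIs per nucleus a Pparg UMI was found in 12.0% (9.29 to 15.1) of endothelial-class BAT nuclei and 9.04% (6.34 to 12.4) of those of taPVAT, and unthinned in 46.2% and 32.4%, at median depths of 1075 and 898 UMIs. Classes here are ranges of marker UMIs rather than clusters. They took in 91.2% of taPVAT, 94.7% of BAT and 94.7% of cow WAT nuclei, of which 10.7%, 5.75% and 7.22% lay near the limit, against 21.9% to 51.3% of nuclei in the white rat libraries, of which 39.6% to 57.1% lay near the limit. Doublets were not called, so a share of mixed nuclei stays in each class.

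**Figure D3:**
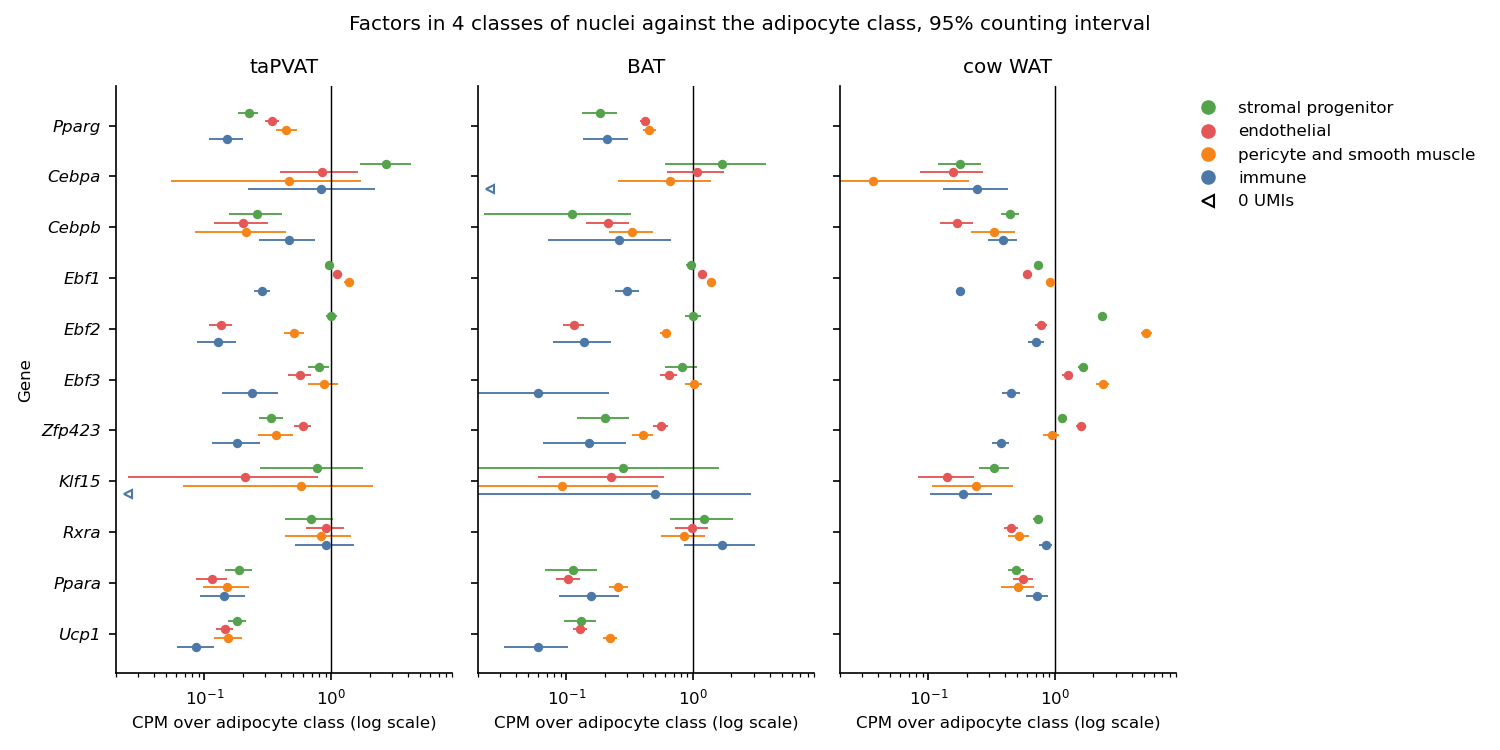
Level of each factor in 4 classes of nuclei over its level in the adipocyte class of the same library (log scale), with 95% counting intervals and open triangles for 0 UMIs. In taPVAT and BAT, Ppara lies near Ucp1 in the stromal, endothelial and pericyte classes. In the immune class Ppara lies at 0.157 against 0.0603 in BAT and 0.142 against 0.0862 in taPVAT, with overlapping intervals in both. Endothelial and pericyte Pparg lie above Ucp1 in taPVAT and BAT, and Ebf1 lies above 1 in these classes. In cow WAT pericyte EBF2 lies at 5.23.

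Counting the factors by their gates, 5 of 10 were at least 2-fold higher in adipocyte-gated nuclei of taPVAT (Pparg, Ppara, Zfp423, Cebpb and Klf15) and 0 lower, where 13.1% of 12409 genes were higher and 24.2% lower. In BAT 4 of 10 were higher (Pparg, Ppara, Zfp423 and Cebpb) and 0 lower, against 9.72% and 28.7% of 13222 genes. In cow WAT 3 of 9 were higher (Cebpa, Cebpb and Klf15) and 1 lower (Ebf2), against 7.82% and 14.8%. In the white rat libraries 3 of 7 were higher and 1 lower on 10x, against 21.5% and 14.2%, 2 of 9 higher and 0 lower in mesPVAT on Parse, against 13.0% and 13.1%, and 1 of 4 higher and 0 lower in RP fat, against 11.9% and 5.47%. The Klf15 call in taPVAT rested on 1 stromal UMI, and its interval (0.674 to 155) lay on both sides of 1. The higher calls on 10x rested on 2 (Pparg), 5 (Zfp423) and 2 (Rxra) stromal UMIs, and that of Cebpb in BAT on 0. The median ratio of the factors was 1.90 in taPVAT, 1.55 for BAT and 1.68 for cow WAT, beside 0.858, 0.946 and 0.880 for all genes. On 10x, in mesPVAT on Parse and in RP fat it was 1.08, 1.05 and 1.25, beside 1.06, 0.910 and 1.01. Nuclei positive for both marker pairs numbered 149 (taPVAT), 76 (BAT) and 187 (cow WAT), and with these kept in both groups 0 factors were higher in these libraries. With Adipoq alone against Dcn alone, 2 passed in taPVAT (Pparg and Ppara), and in the library labelled RP fat 0 did.

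**Figure D4:**
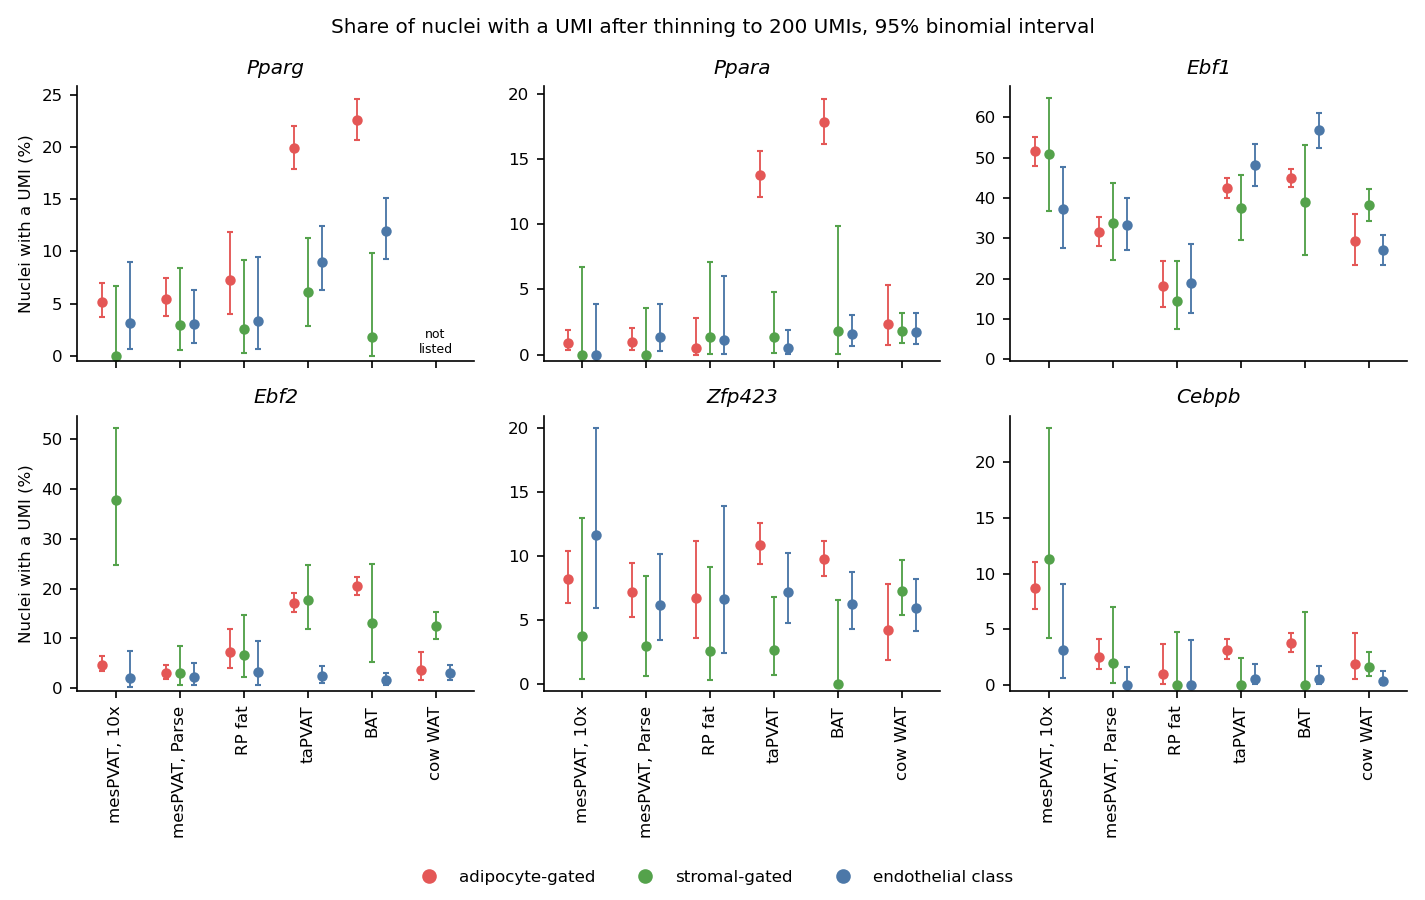
Share of nuclei with a UMI (%) after thinning each nucleus to 200 UMIs, for 6 factors in adipocyte-gated, stromal-gated and endothelial-class nuclei of each library, with exact 95% binomial intervals. Pparg and Ppara are highest in adipocyte-gated nuclei of taPVAT and BAT (22.6% and 17.8% in BAT), Ebf1 is frequent in the 3 groups, and Ebf2 reaches 37.7% in stromal-gated nuclei of mesPVAT on 10x.

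Brown and white rat depots were compared by asking whether both brown Parse libraries lay above, or both below, both white ones. Over all nuclei 9 of 10 factors were higher in brown and 0 lower, where 20.7% of 24063 genes were higher and 62.6% lower, and only Rxra overlapped. The gap between the lower brown and the higher white library was 10.7-fold for Ppara, 5.45-fold for Pparg, 4.56-fold for Ebf2, 2.70-fold for Ebf3, 2.35-fold for Cebpb, 1.94-fold for Zfp423 and 1.89-fold for Ebf1. For Cebpa and Klf15 it was 1.05-fold and 1.08-fold, with overlapping intervals. The order of their libraries was within counting error, except for Cebpa of taPVAT against RP fat. The median ratio of mean brown to mean white level was 2.87 for the factors and 0.378 for all genes.

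Within adipocyte-gated nuclei 7 factors remained higher in brown (Pparg, Ppara, Ebf1, Ebf2, Ebf3, Zfp423 and Cebpb), where 24.9% of 17748 genes were higher. Pparg was at 252 and 256 CPM in mesPVAT and RP fat against 1405 and 1441 CPM in taPVAT and BAT, and Ebf2 at 190.2 and 329 against 1305 and 1326 CPM. Ebf3 was at 104 and 109.5 against 352 and 388 CPM, and Zfp423 at 320.2 and 319 against 638 and 616 CPM. Ebf1 was at 2000.4 and 1177 against 3231 and 3409.8 CPM, and Cebpb at 128 and 27.4 against 177 and 176 CPM. The gap of Cebpb, 1.37-fold, was the smallest of the 7, and its RP fat value rested on 3 UMIs. The other 3 factors, Cebpa, Klf15 and Rxra, were lower in brown, where 46.7% of genes were. Cebpa was at 47.1 and 36.5 CPM in mesPVAT and RP fat against 26.1 and 25.2 CPM in taPVAT and BAT, and Klf15 at 32.0 and 36.5 against 19.5 and 22.0 CPM. Their RP fat values rested on 4 UMIs each and that of Rxra on 11, and with Adipoq alone as the gate 0 factors were lower. The mesPVAT intervals overlapped brown ones too, for Cebpa at 30.5 to 69.5 against 21.0 to 32.0 in taPVAT. For Klf15 they were 18.7 to 51.3 against 18.1 to 26.5 in BAT, and for Rxra 74.8 to 131 against 77.8 to 97.5 in taPVAT. The order of the libraries for these 3 factors was thus within counting error, except for Cebpa of BAT against mesPVAT. The intervals of that pair did not overlap. A count of 3 of 10 is below the share of all genes. The median brown-to-white ratio in these nuclei was 2.18 for the factors and 0.666 for all genes. Pparg and Ebf2 of adipocyte-gated mesPVAT nuclei (252 and 190.2 CPM) lay near their levels over all mesPVAT nuclei (217 and 217 CPM). Cebpb did not (128 against 64.0 CPM). The part of free RNA in the white gated levels was not tested.

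In stromal-gated nuclei 5 of the 7 factors with enough UMIs were higher in brown and 0 lower, where 38.6% of 4846 genes were higher and 20.8% lower. Ebf2 was at 197 and 271 CPM in mesPVAT and RP fat against 1385 and 1159 CPM in taPVAT and BAT, a gap of 4.27-fold. Ebf3 was at 128 and 90.3 against 317 and 319.6 CPM, and Ebf1 at 1898 and 976 against 3324 and 3129.5 CPM. The EBF genes were thus higher in brown fat in both gates. The stromal Ebf3 intervals of BAT (205 to 476 CPM) and mesPVAT (68.1 to 219 CPM) overlapped. Pparg, at 108 and 199 against 282 and 213 CPM, and Ppara, at 39.3 and 18.1 against 85.6 and 53.3 CPM, were the other 2. Pparg rested on 11 and 11 against 56 and 16 UMIs, with a gap of 1.07-fold, and Ppara on 4 and 1 against 17 and 4 UMIs. Brown and white intervals overlapped for both, except for Pparg of taPVAT against mesPVAT. Apart from that pair, the order of their libraries was within counting error. Stromal-gated nuclei of taPVAT and BAT also held Ucp1 at 171 and 146 CPM, and the part of free adipocyte RNA in the stromal Pparg and Ppara was not tested. In sublibrary 2 alone only the 3 EBF genes passed. Depth moved with the depots, since median UMIs of adipocyte-gated nuclei were 581 and 288 in the white and 1779.5 and 2172 in the brown Parse libraries. So did markers outside the gates. Stromal markers summed to 3393 and 2891 CPM in white stromal-gated nuclei against 8477 and 7191 CPM in those of taPVAT and BAT. Adipocyte markers summed to 3355 and 1077 CPM in white adipocyte-gated nuclei against 4321 and 4340.0 CPM. Their part in the differences between brown and white was not tested.

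**Figure D5:**
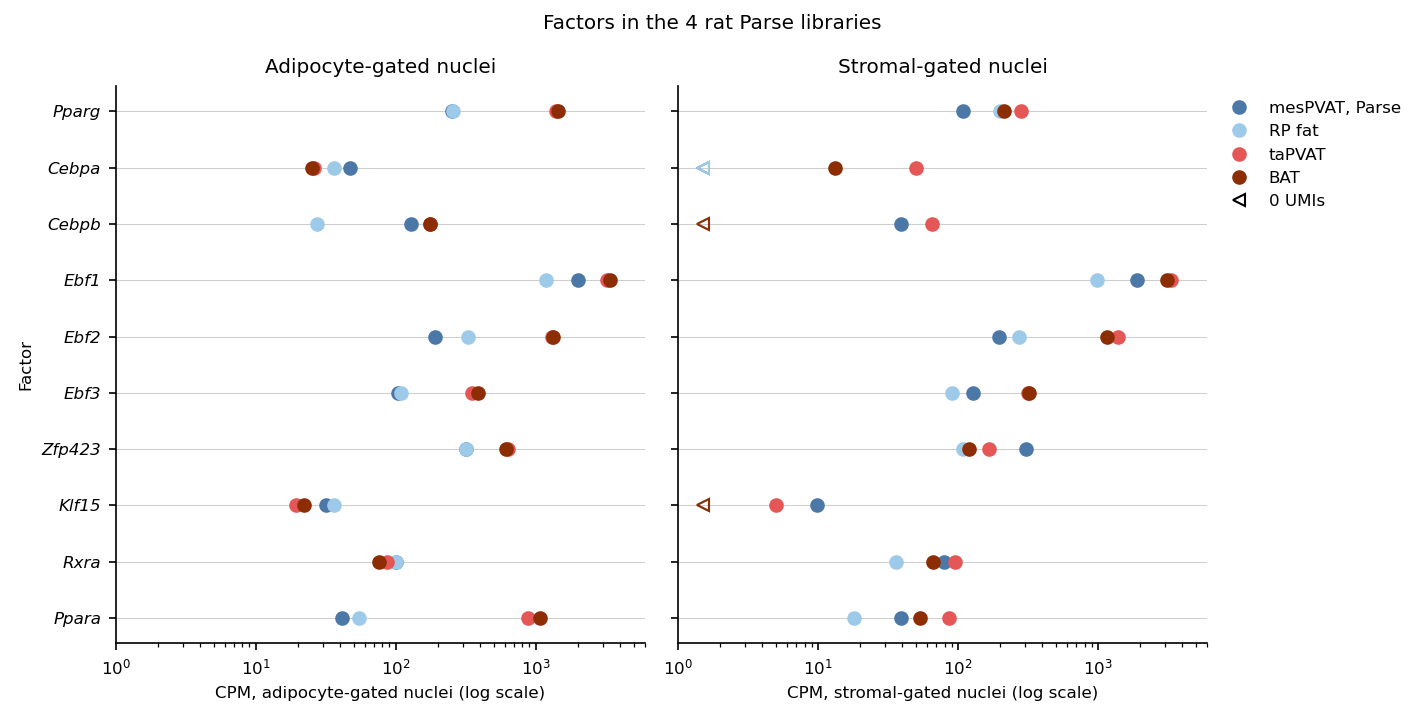
CPM (log scale) of each factor in adipocyte-gated (left) and stromal-gated (right) nuclei of the 4 rat Parse libraries, with open triangles for 0 UMIs, which can overlie each other. On the left the brown depots lie right of the white ones for 7 factors. They lie left of them for Cebpa, Klf15 and Rxra, within counting error except for Cebpa of BAT against mesPVAT. On the right the gap is widest for Ebf2, Ebf3 and Ebf1.

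Between the brown depots, 0 of 10 factors were 2-fold apart, where 7.07% of 18696 genes were. The largest difference was that of Ppara, 1.27 times (1.22 to 1.33) as high in BAT as in taPVAT. Ebf3 followed among the well counted ones at 1.15 times (1.08 to 1.23), and Ebf2, Zfp423 and Cebpb had intervals that included 1. Between the white Parse libraries 2 of 10 factors were 2-fold apart, a count near the share of 15.7% of 18507 genes. Both were higher in mesPVAT, Cebpb by 3.86 times (2.20 to 7.31) and Ebf1 by 2.13 times (1.95 to 2.32). Were the labels of these libraries exchanged, as their order in depth leaves possible, both would be lower in mesPVAT, at 0.259 and 0.470 times RP fat, which was not tested.

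Between mesPVAT on 10x and on Parse, 5 factors were 2-fold apart, where 55.1% of 11913 genes were. Cebpb, under different identifiers, was 8.85 times (7.21 to 11.0), Rxra 2.43 times (1.95 to 3.03) and Ebf2 2.04 times (1.78 to 2.33) as high on 10x. Cebpa was 9.46 times (3.00 to 47.9) and Ppara 2.24 times as high on Parse (99 against 33 UMIs). Pparg did not differ beyond counting error, at 1.02 times (0.868 to 1.20). The platforms differed also in annotation, nuclei protocol and batch, which cannot be told apart from each other. With the white labels exchanged, the libraries compared here would be of different depots. Against the library labelled RP fat, a comparison added after seeing the data, 4 of 9 factors were 2-fold apart (Cebpb, Ebf1, Rxra and Ppara), where 59.5% of 10947 genes were. Both counts of factors lie near or below these shares of all genes.

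Levels of different genes were compared only per kilobase of the gene's span in RefSeq on GRCr8. This scale takes UMIs to rise with the span, introns included, which was not tested. It raises the shortest genes most, Cebpb and Cebpa (2.67 kb), so the order below holds on this scale only. In adipocyte-gated BAT nuclei Cebpb, a single-exon gene of 1.43 kb, was highest at 123 CPM per kb (115 to 131), followed by Ppara at 15.8 (15.3 to 16.2), Pparg at 11.5 (11.2 to 11.8), Cebpa at 9.42 (7.85 to 11.2) and Ebf1 at 8.67 (8.54 to 8.80) CPM per kb. Cebpa and Ebf1 did not differ beyond their intervals. Below them came Ebf2 at 6.67, Ebf3 at 3.29, Zfp423 at 2.06, Klf15 at 1.70 (1.40 to 2.05), whose interval overlapped that of Zfp423, and Rxra at 0.873 (0.788 to 0.965) CPM per kb. In taPVAT the order was the same, from 123 CPM per kb for Cebpb to 1.01 (0.899 to 1.13) for Rxra. On this scale Ebf1, spread over 393 kb, no longer led.

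Other genes of the pathway are given by counts from lists that were chosen with earlier results known. The adipocyte gate picks nuclei by fat cell genes, so higher levels of other fat cell genes there follow in part from the gate. Of 9 measured genes known as PPARγ targets, 9 were at least 2-fold higher in adipocyte-gated nuclei in taPVAT and in BAT, with median ratios of 6.70 and 7.58, and 7 of 10 in cow WAT, with a median of 9.76. Of all genes 13.1%, 9.72% and 7.82% were higher, with medians of 0.858, 0.946 and 0.880. In the white rat libraries 5 of 8 were higher on 10x, 5 of 8 in mesPVAT on Parse and 2 of 3 in RP fat, against 21.5%, 13.0% and 11.9% of all genes, and 0 were lower. Acsl1, which activates fatty acids, stood at 2917 against 358 CPM in taPVAT, 3384 against 279.7 CPM in BAT and 2394 against 162 CPM in cow WAT. Lpl, the lipase that takes up fat from the blood, stood at 2293 against 458, 2381 against 759 and 551 against 106 CPM. In adipocyte-gated nuclei 7 of the 9 targets were higher in both brown libraries and 0 lower, against 24.9% and 46.7% of all genes, among them Pdk4, a brake on glucose oxidation, at 73.5 and 63.9 CPM in mesPVAT and RP fat against 1316 and 1630.0 CPM in taPVAT and BAT.

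All 6 brown fat factors on their list (Ppargc1b, Esrrg, Prdm16, Ppargc1a, Irf4 and Esrra) were at least 2-fold higher in adipocyte-gated nuclei of taPVAT and of BAT, with median ratios of 8.60 and 8.86, where 13.1% and 9.72% of all genes were. Ppargc1b, a coactivator of mitochondrial genes, stood at 2193 against 166 CPM in taPVAT and 2727 against 119.9 CPM in BAT. Prdm16, a switch towards brown fat, stood at 906 against 141 and 1000.0 against 266 CPM. In cow WAT 1 was higher, Ppargc1b at 583 against 71.1 CPM, and 3 were lower, among them Ppargc1a at 12.7 against 46.5 CPM, where 7.82% and 14.8% of all genes were. In the white rat libraries fewer of these genes had enough UMIs. On 10x 1 of 2 was higher (Ppargc1b) and 1 lower (Esrrg, at 70.8 against 239.7 CPM), in mesPVAT on Parse 0 of 4 were higher and 1 lower (Prdm16, at 119 against 256 CPM), and in RP fat 1 of 4 was higher (Ppargc1b) and 0 lower. Of all genes 21.5%, 13.0% and 11.9% were higher and 14.2%, 13.1% and 5.47% lower in these libraries. Of factors known to restrain adipogenesis, 0 of 8 were higher and 5 lower in taPVAT, 0 and 6 in BAT, and 1 of 11 higher and 1 lower in cow WAT. The cow counts are near the shares of all genes, while in taPVAT and BAT 24.2% and 28.7% of all genes were lower. On 10x 1 of 6 was higher (Tcf7l2, at 1789.8 against 799 CPM) and 3 lower, and 0 were higher and 1 lower of 6 in mesPVAT on Parse and of 4 in RP fat. These counts stand beside the shares of all genes given above for the white rat libraries. Zfp521, an antagonist of ZFP423 and EBF1, was lower in all 6 libraries, at 87.0 against 659.9 CPM in taPVAT, 51.8 against 453 CPM in BAT and 69.7 against 311 CPM in cow WAT.

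Of 16 other factors known to favour adipogenesis, 5 were higher and 3 lower in adipocyte-gated nuclei of taPVAT, and 3 and 2 in BAT. Of all genes 13.1% were higher and 24.2% lower in taPVAT, and 9.72% and 28.7% in BAT. The lower counts of the factors lie below these shares. Srebf1, a driver of lipid synthesis, stood at 512 against 25.2 CPM in taPVAT and 605 against 40.0 CPM in BAT, and Klf4, an early factor, at 7.36 against 45.3 and 10.5 against 40.0 CPM. In cow WAT 2 of 19 were higher, led by Mlxipl, the carbohydrate response factor, at 366 against 16.4 CPM, and 5 were lower. Of all genes 7.82% were higher there, near the count of the factors, and 14.8% lower. On 10x 2 of 11 were higher and 0 lower, in mesPVAT on Parse 1 of 9 and 2, and in RP fat 1 of 4 and 1, with Srebf1 among the higher ones of each. Of all genes 21.5%, 13.0% and 11.9% were higher and 14.2%, 13.1% and 5.47% lower in these libraries. On 10x and in mesPVAT on Parse the higher counts lie below these shares. In adipocyte-gated nuclei 12 of 16 were higher in both brown libraries and 2 lower, against the same 24.9% and 46.7%. Of these 12, Klf9, Stat5a, Ppard and Zfp467 had 0 UMIs in RP fat, where 3 counts equal 27.4 CPM. Ppard (31.7 and 26.8 CPM in taPVAT and BAT) and Zfp467 (24.4 and 17.8 CPM) lay near or below that limit. Their order against RP fat is therefore not settled.

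Across 20 profiles, each a class of nuclei in a rat Parse library, Pparg was most like Mfn1 (Pearson r = 0.927), Tns1 (0.918) and Gnas (0.909), and Ppara most like Acss2 (0.945), Ahcyl1 (0.943) and Lrpprc (0.939). Ebf1 was most like Arhgef12 (0.947), Nedd4 (0.926) and Nfib (0.889), Ebf2 like Irs1 (0.878), Rora (0.876) and Adra1a (0.861), and Ebf3 like Phlpp1 (0.890), Rbfox2 (0.870) and Pcbp2 (0.854). Zfp423 was most like Ptpn14 (0.874), Cracr2b (0.846) and Erc1 (0.802), and Cebpb like Prkar2b (0.888), Atad3a (0.886) and Retn (0.881). The thinly counted Cebpa, Klf15 and Rxra reached at most 0.812 with Nme2, 0.825 with Grhl1 and 0.753 with Gsk3a. Among the factors themselves the closest pairs were Pparg and Ppara (0.846) and Ebf1 and Ebf3 (0.815), while Rxra and Ebf2 gave -0.118. Values are Pearson r of log2(CPM + 10). Of the classed nuclei behind the profiles, 39.6% in mesPVAT and 57.1% in RP fat lay near the limit of their class. The profiles of a library share its depth and free RNA, so these values describe likeness and carry no test.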

How the data were processed

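UMI counts of each gene in each nucleus were used as the authors deposited them, without normalization. The Parse reads were aligned and counted by the authors with split-pipe on GRCr8 or ARS-UCD1.3, in 2 sublibraries that were joined. The 10x reads were counted with Cell Ranger 7.1.0, for which the supplementary methods name Rnor_6.0. UMIs were summed over all deposited nuclei, over gates and over 7 classes (the class with the most of 51 marker UMIs, at least 2 and no tie), and scaled to CPM. A factor at 0 UMIs was given a limit of 3 counts. Sums have exact Poisson intervals, shares exact binomial ones and ratios binomial ones on the split of UMIs. No doublet caller was run, and nuclei positive for both marker pairs were left out of the gates. Likeness used genes with at least 200 UMIs and classes of at least 30 nuclei. The rule for names was the 10 factors, at most 4 genes per list (those with the most UMIs among those past the fold) and the 3 most alike genes. Klf4, Irf4, Esrra, Klf9, Stat5a, Ppard and Zfp467 were named after their values were seen. Factors, lists and rules were chosen with earlier results of these data known. The ratio step was tested on Poisson counts simulated from taPVAT, for genes with more than 30 expected stromal UMIs. Sparser ratios, limits from 0 UMIs and the other libraries were not covered by that test. Genes with several rows or none under their symbol were left out of the lists. The list of coregulators is not reported here. Python 3.11.15, numpy 2.4.6, scipy 1.17.1, pandas 2.3.3 and matplotlib 3.10.9 were used, with seed 20.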

Additional observations from a re-analysis of the deposited data

Results flagged for a closer look

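Zfp423 lay on opposite sides of 1 in rat and cow. Its level in adipocyte-gated over stromal-gated nuclei was 3.29 in mesPVAT on 10x, 2.95 in RP fat, 3.84 in taPVAT and 5.14 in BAT, with intervals above 1, and 0.719 (0.646 to 0.799) in cow WAT, below 1. The remaining rat library, mesPVAT on Parse, gave 1.05 with an interval on both sides of 1. The ratios on 10x, in RP fat and in BAT rested on 5, 6 and 9 stromal UMIs. Grouped by classes, stromal progenitors of RP fat held 0.567 times (0.287 to 1.14) the adipocyte level, an interval that includes 1. The difference between the species was not tested, since each condition has 1 library. The cow gene is ZNF423, and the cow gate rested on PLIN1 alone.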

How the results depend on the processing

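No paired analysis was possible because each condition has 1 library. Of 275 counts of factors under an alternative, 243 stayed within 1.5 times the reported count. Outside the counting interval of the reported value lay 69 of 275 levels, 85 of 565 ratios and 141 of 177 shares. No ratio past the 2-fold line moved to the other side of 1, but 57 of 337 nearer to 1 did, among them Cebpa in taPVAT (2.48 in sublibrary 1) and, in sublibrary 2, Ppara in mesPVAT on Parse (0.437) and Pparg in RP fat (0.801). Of factors higher in adipocyte-gated nuclei, mesPVAT on Parse had 1 under the study's fixed limits (Cebpb), in sublibrary 2 (Cebpb) and with Adipoq against Dcn (Pparg), and 4 with nuclei positive for both pairs kept in both groups. RP fat had 0 in sublibrary 2, with 2 UMIs for a gate, with Adipoq against Dcn, with classes and at a minimum of 50 UMIs, and 3 at a minimum of 1 UMI. With nuclei positive for both pairs kept in both groups, taPVAT, BAT and cow WAT had 0 higher and cow WAT 0 lower. The taPVAT library had 2 higher with Adipoq against Dcn, and 1 lower (Cebpa) at 500 UMIs per nucleus, in sublibrary 2, with classes and at a fold of 1.5. On 10x, classes gave 5 higher. Cow WAT had 5 higher at a fold of 1.5, and 2 lower (Ebf2 and Ebf3) in sublibrary 1, with 2 UMIs for a gate and at a fold of 1.5. Of factors higher in brown stromal-gated nuclei there were 3 in sublibrary 2, 9 with nuclei positive for both pairs kept and 8 with classes, and 1 was lower (Zfp423) with 2 UMIs for a gate and without the library labelled RP fat. In adipocyte-gated nuclei 0 were lower with Adipoq against Dcn. At 500 UMIs per nucleus mesPVAT on 10x and Parse differed in 3 factors, and in sublibrary 1 mesPVAT and RP fat in 1. The causes were not tested. Leaving out gate genes or a white library, and exchanging the white labels, was added after seeing the data. Few stromal UMIs limit the gated ratios of Cebpa and Klf15 in rat. They also limit those of BAT and the white rat libraries, where many ratios rest on under 10 stromal UMIs.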
